A study of Mus musculus with 2 samples.

Results

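The genes described here are 9 genes of the neurexin, neuroligin and LRRTM families, chosen by name: the neurexins Nrxn2 and Nrxn3, the neuroligins Nlgn1, Nlgn2 and Nlgn3, and the leucine-rich repeat transmembrane genes Lrrtm1, Lrrtm2, Lrrtm3 and Lrrtm4. They are 9 of the 55536 annotated genes in the tables, and the rule that lists them uses no measured value. Earlier results of these data were known when they were chosen. The libraries are total RNA-seq of left cerebral cortex tissue, taken from female B6CASTF1/J mice, F1 hybrids of C57BL/6J and CAST/EiJ, at 4 days of age. The tissue formed 1 group of 2 libraries, replicate 1 and replicate 2, with no treatment and no contrast. The labels number the tissue samples 03 and 04 and name 1 donor entry for both, so the spread between the libraries may be technical.

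Neurexins are presynaptic surface proteins that reach across the synaptic cleft to partners on the receiving neuron. Each neurexin gene makes long alpha forms from an upstream start and short beta forms from an internal start, and short exons are spliced in or out of both. Neuroligins are postsynaptic neurexin receptors: Nlgn1 is known for excitatory synapses, Nlgn2 for inhibitory synapses and Nlgn3 for both. LRRTM proteins are postsynaptic ligands at excitatory synapses, where Lrrtm1 and Lrrtm2 bind neurexins that lack the insert at splice site 4, and Lrrtm3 and Lrrtm4 also bind heparan sulphate chains. The cerebellin ligands bind neurexins that carry that insert.

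The exon at splice site 4 is 90 bases long in both neurexins, and its presence divides the neurexin transcripts described below. That of Nrxn3 is shown as an example and lies on the plus strand at chr12:90199147-90199236 (mm10, coding exons of GENCODE M21).
Nrxn3 splice site 4 exon: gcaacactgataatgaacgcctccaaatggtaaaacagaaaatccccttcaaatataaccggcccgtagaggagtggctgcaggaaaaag
Over the aligned coding sequences of their longest transcripts, Nrxn2 and Nrxn3 were identical at 69.0% of positions.

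Neuroligins carry short inserts at sites called A and B. The 60-base exons below are the site A insert of Nlgn1 (minus strand, chr3:25920178-25920237) and the exon of Nlgn3 that it resembles (plus strand, chrX:101307075-101307134), with differing positions in capitals. They were identical at 43 of 60 positions.
Nlgn1 60-base exon: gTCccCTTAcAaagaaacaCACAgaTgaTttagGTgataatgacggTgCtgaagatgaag
Nlgn3 60-base exon, downstream: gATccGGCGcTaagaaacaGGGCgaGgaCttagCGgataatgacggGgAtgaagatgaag
Nlgn3 has another 60-base exon upstream of it (chrX:101303072-101303131), which matched the Nlgn1 exon at 16 of 60 positions. Nlgn2 has a 51-base exon on the minus strand at chr11:69830563-69830613. The 27 bases of Nlgn1 at chr3:25439865-25439891 lengthen the end of a longer exon and make the site B insert.
Nlgn3 60-base exon, upstream: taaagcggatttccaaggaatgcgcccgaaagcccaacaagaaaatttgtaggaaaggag
Nlgn2 51-base exon: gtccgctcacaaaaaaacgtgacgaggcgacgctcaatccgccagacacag
Nlgn1 27-base extension: gtaaccgttggagcaattcaaccaaag

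For both libraries, genes and transcripts were quantified by one program (the first table) and transcripts once more by another (the second table). Counts of annotated genes summed to 29310533 in replicate 1 and 28844674 in replicate 2. Levels are in TPM, the relative transcript abundance, which is scaled by transcript length and so can be compared between genes. Among markers, the excitatory neuron list summed to 496 and 515 TPM in replicates 1 and 2, with all 5 of its genes above 1 TPM, and the inhibitory list to 169 and 178 TPM, with all 5 as well. The choroid plexus list summed to 215 TPM in replicate 1 and 4.85 TPM in replicate 2, with 2 of its 5 genes above 1 TPM in both, and Ttr, the transthyretin gene, made up 206 and 1.94 TPM of those sums. None of its genes was at 0, and its part in the values below was not tested. In bulk tissue, fewer cells of a type and less RNA per cell cannot be told apart.

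All 9 genes passed 1 TPM in both libraries, and none was lost to a filter on low values. Their median was 49.4 ± 1.55 TPM (SD, n = 2), against a median of 17.1 TPM over the protein-coding genes that passed the same level. The spread over the genes was wide, from 18.2 TPM for Lrrtm4 to 374 TPM for Nrxn2.

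Among the presynaptic members, Nrxn2 (ENSMUSG00000033768.17, chr19:6418731-6544169, plus strand, 125.4 kb) had 371 TPM in replicate 1 and 376 in replicate 2. It ranked 121 among protein-coding genes, with 99.5% of them below it. Nrxn3 (ENSMUSG00000066392.11, chr12:88722876-90334935, plus strand) spans 1612.1 kb and had 62.3 TPM in replicate 1 and 79.2 in replicate 2. Its libraries lay further apart than those of Nrxn2, but both were far below either Nrxn2 value. Nrxn2 made up 84.1% ± 2.13 of the TPM of these neurexins by the first table and 84.7% ± 1.502 by the second (SD, n = 2). On the log2(TPM + 1) scale, Nrxn3 minus Nrxn2 was -2.39 ± 0.23 by the first table and -2.46 ± 0.17 by the second. Other genes of the family are not analysed here, so these shares cover Nrxn2 and Nrxn3 alone.

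Among the neuroligins, Nlgn2 (ENSMUSG00000051790.15, chr11:69823122-69837784, minus strand), the inhibitory synapse form, had 123 TPM in replicate 1 and 128 in replicate 2. Nlgn3 (ENSMUSG00000031302.16, chrX:101299168-101325963, plus strand) had 83.9 TPM in replicate 1 and 90.9 in replicate 2. Nlgn1 (ENSMUSG00000063887.13, chr3:25426215-26332460, minus strand) had 48.4 TPM in replicate 1 and 50.5 in replicate 2. The values of the 3 genes did not overlap, and they took 47.8%, 33.3% and 18.9% of the summed neuroligin TPM. The gene spans of 14.7 kb for Nlgn2, 26.8 kb for Nlgn3 and 906.2 kb for Nlgn1 stood in the opposite order to the levels. That order did not hold over all members. The shortest, Lrrtm2 at 6 kb, had a mean of 18.5 TPM, and the longest, Nrxn3 at 1612.1 kb, 70.7 TPM.

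The place of Nlgn1 below Nlgn2 was the same in both tables, with Nlgn1 minus Nlgn2 at -1.33 ± 0.01 and -1.32 ± 0.0023 on the log2(TPM + 1) scale. Nlgn3 lay between them in both tables, but its distance from Nlgn2 depended on the table. In the second table Nlgn3 was at 175 and 179 TPM and Nlgn2 at 182 and 185 TPM in replicates 1 and 2. Nlgn3 minus Nlgn2 was thus -0.05 there, against -0.52 ± 0.04 in the first table. The processed transcripts Nlgn3-205 and Nlgn3-204 had means of 1.355 and 1.97 TPM in the first table and 59.4 and 20.2 TPM in the second. Nlgn3 was the only member whose count carried a posterior standard deviation above 0, with 27.9 of 8813 counts in replicate 1 and 24.2 of 8756 in replicate 2. It shares 3823 exonic bases on the same strand with the processed transcript gene Gm21986, which had 176 and 123 counts.

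Among the LRRTM genes, Lrrtm1 (ENSMUSG00000060780.2, chr6:77242689-77257791, plus strand) led with 32.3 TPM in replicate 1 and 33.3 TPM in replicate 2. Lrrtm3 (ENSMUSG00000042846.8, chr10:63928472-64090277, minus strand) had 15.1 TPM in replicate 1 and 22.8 in replicate 2, the widest gap between libraries of any member relative to its level. Lrrtm2 (ENSMUSG00000071862.3, chr18:35209003-35215024, minus strand) had 17.8 TPM in replicate 1 and 19.2 in replicate 2. Lrrtm4 (ENSMUSG00000052581.13, chr6:80018877-80810143, plus strand) had 16.9 TPM in replicate 1 and 19.5 in replicate 2. Lrrtm1 stood above the other 3 in both libraries of the first table, while those 3 overlapped one another and cannot be ordered. In the second table Lrrtm3 was at 39.0 and 46.3 TPM, above Lrrtm2 and Lrrtm4 at 24.2 to 25.1 TPM and overlapping with Lrrtm1 at 50.1 and 45.3 TPM.

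**Figure D1:**
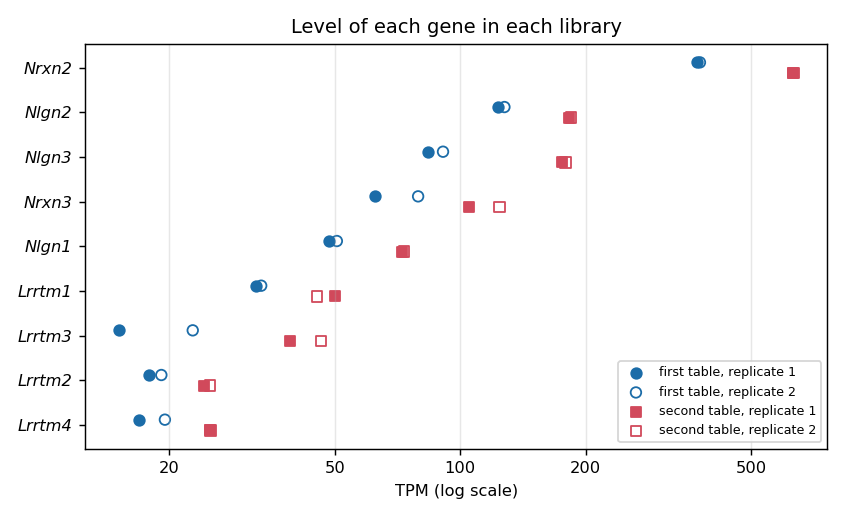
TPM of each of the 9 genes (log axis) in replicate 1 (filled) and replicate 2 (open) in the first table (circles) and the second table (squares), in the order of the first table. Nrxn2 lies highest at 371 and 376 TPM, and Lrrtm3, Lrrtm2 and Lrrtm4 overlap between 15.1 and 22.8 TPM in the first table.

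Of the 8 neighbouring pairs in the order of level, 6 did not overlap between libraries in the first table, the exceptions being Lrrtm3 with Lrrtm2 and Lrrtm2 with Lrrtm4. As many stood apart in the second table, but Lrrtm1 and Lrrtm3 overlapped there and Lrrtm3 and Lrrtm2 did not. A sign-flip test over 2 libraries cannot go below an exact p of 0.5, so no p is given for any ratio between genes. As families, the 2 neurexins summed to 444 ± 15.7 TPM, the 3 neuroligins to 262 ± 9.70 TPM and the 4 LRRTM genes to 88.5 ± 8.84 TPM (SD, n = 2). The neuroligin sum was 2.97 ± 0.187 times the LRRTM sum by the first table and 3.09 ± 0.0180 times by the second. Levels themselves were 1.33 to 2.25 times higher in the second table than in the first, and 0.830 to 1.40 times after both were rescaled to the same total over nuclear protein-coding genes.

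Lrrtm1, Lrrtm2 and Lrrtm3 each lie on the opposite strand inside an alpha catenin gene, whose product links cadherins to actin. Lrrtm1 had 32.8 ± 0.665 TPM and its host Ctnna2, the neuronal alpha catenin, 87.4 ± 1.31 TPM, a log2(TPM + 1) difference of -1.39 ± 0.01. Lrrtm2 had 18.5 ± 0.926 TPM and its host Ctnna1, the broadly expressed alpha catenin, 19.6 ± 1.85 TPM, a difference of -0.08 ± 0.06 that was -0.58 ± 0.18 in the second table. Lrrtm3 had 19.0 ± 5.40 TPM and its host Ctnna3 0.355 ± 0.0354 TPM, from 26 and 20 counts, a difference of 3.85 ± 0.43 in which the low Ctnna3 value makes the pseudocount matter. So in the first table Lrrtm1 lay below its host, Lrrtm2 overlapped with its host and Lrrtm3 lay above. Ctnna1 and Lrrtm2 share 95 exonic bases, and whether the counting used strand is not given in the sources used here, so reads from those bases cannot be told apart.

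Neurexin transcripts were divided by where they start. In Nrxn2 the internal start lies at position 6497828 of chromosome 19, 69891 bases past the last start of a complete alpha transcript. The 7 alpha transcripts that code for protein summed to 159 TPM in replicate 1 and 157 TPM in replicate 2, and the 2 beta transcripts to 126 and 122 TPM. Beta forms thus held 44.3% of coding Nrxn2 TPM in replicate 1 and 43.6% in replicate 2, close together in the 2 libraries. The share was 35.02% ± 1.86 in the second table (SD, n = 2).

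In Nrxn3 the internal start lies at position 89812483 of chromosome 12, 619377 bases past the last alpha start. Its 3 alpha transcripts summed to 25.8 TPM in replicate 1 and 28.2 TPM in replicate 2, and its 2 beta transcripts to 8.78 and 10.4 TPM. Beta forms held 25.4% in replicate 1 and 26.95% in replicate 2, below both Nrxn2 values, and 26.7% ± 0.492 in the second table. In the beta class the distance between the genes was wider than in the alpha class, with Nrxn3 at 9.60 ± 1.15 TPM against Nrxn2 at 124 ± 3.27 TPM for beta and 27.005 ± 1.70 against 158 ± 0.976 TPM for alpha. When non-coding transcripts were placed by start as well, the beta share of Nrxn3 was 13.6% ± 0.677.

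Of the RefSeq promoter windows of Nrxn3 (GRCm38.p6, 250 bases before to 50 after the start), an alpha one and the beta one are shown. They were taken because the start divides alpha from beta forms. The alpha window shown, chr12:88794254-88794553 on the plus strand, lies at the annotated start of Nrxn3-205. The beta window, chr12:89812233-89812532 on the plus strand, lies at that of Nrxn3-202 and Nrxn3-203. Other transcripts of Nrxn3 start further upstream, such as Nrxn3-204 at position 88722888 and Nrxn3-208 at 88723109. The 2-exon transcripts Nrxn3-206 and Nrxn3-212 also start upstream, at 88725009 and 88725681, and end past the Nrxn3-205 start. The bases just before that start resemble the end of an intron. It may therefore be the edge of an internal exon, and the window is labelled alpha promoter by its annotated start alone. Whether the alpha window acts as a promoter was not tested. Capitals mark the dinucleotide CG, which reads the same on both strands.
Nrxn3 alpha promoter: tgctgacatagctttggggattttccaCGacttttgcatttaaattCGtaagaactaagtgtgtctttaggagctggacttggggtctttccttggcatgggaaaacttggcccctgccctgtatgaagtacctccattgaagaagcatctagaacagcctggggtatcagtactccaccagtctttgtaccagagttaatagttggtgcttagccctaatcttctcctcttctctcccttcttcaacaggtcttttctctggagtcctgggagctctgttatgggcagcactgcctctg
Nrxn3 beta promoter: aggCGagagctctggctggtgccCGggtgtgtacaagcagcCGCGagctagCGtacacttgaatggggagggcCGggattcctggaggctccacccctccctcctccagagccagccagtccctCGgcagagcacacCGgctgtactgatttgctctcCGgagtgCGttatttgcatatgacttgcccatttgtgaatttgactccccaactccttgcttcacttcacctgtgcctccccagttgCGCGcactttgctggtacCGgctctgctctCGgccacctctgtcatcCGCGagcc
The window at the Nrxn3-205 start held 2 CG and the beta window 16, but the first count may not be that of an alpha promoter. A further window inside the alpha region, at the start of the non-coding Nrxn3-211 (position 88953390), held 6. The coding alpha transcript Nrxn3-201 starts close by, at 88953399. Over 32851 promoter windows of 300 bases the median was 7, with quartiles of 3 and 20, and 94.6% held at least 1. Matches in the promoter table were found for 6 of the 9 genes.

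Single transcripts differed between the genes. The beta transcript Nrxn2-202, with 7 exons, was the most abundant transcript of its gene at 124 ± 3.22 TPM, or 33.1% ± 1.19 of all Nrxn2 TPM. The alpha transcript Nrxn2-204, with 20 exons, followed at 72.6 ± 1.62 TPM, then the processed transcript Nrxn2-213 at 52.6 ± 0.841 and the alpha transcript Nrxn2-201, with 22 exons, at 45.5 ± 0.587. In the second table Nrxn2-202 held 20.7% ± 1.25 and Nrxn2-213 20.1% ± 1.02, close to each other. In Nrxn3 the alpha transcript Nrxn3-205 led with 24.965 ± 0.785 TPM, and the beta transcript Nrxn3-203 had 7.33 ± 1.35 TPM.

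**Figure D2:**
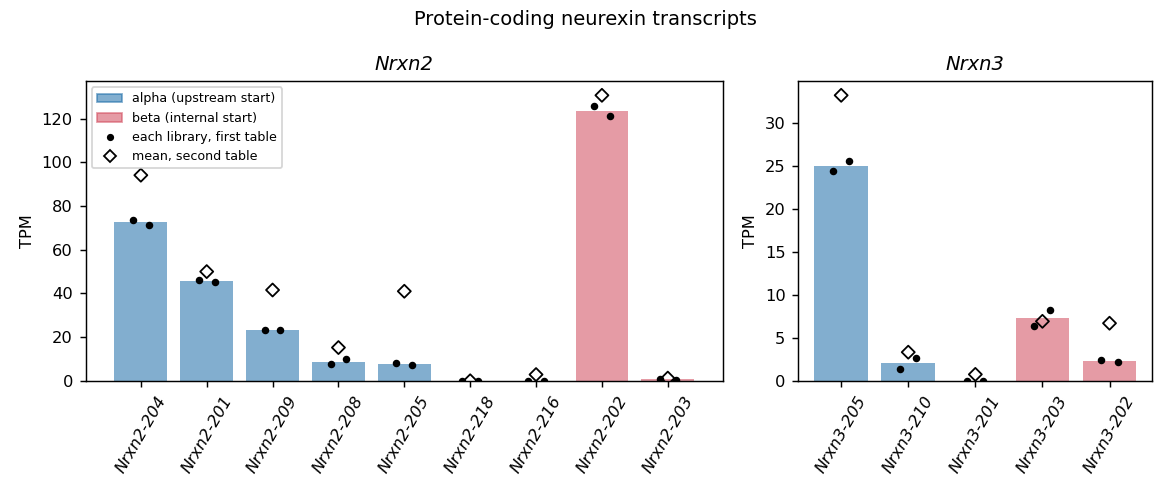
TPM of the protein-coding transcripts of Nrxn2 and Nrxn3, with alpha forms in blue and beta forms in red. Bars are means of the first table, points its 2 libraries and diamonds the means of the second table. Nrxn2-202 alone carries nearly all beta TPM of Nrxn2, while Nrxn3-205 carries most alpha TPM of Nrxn3.

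Exon use was measured as the TPM of coding transcripts that hold an exon over that of coding transcripts that hold or span it. The splice site 4 exon of Nrxn2 was in 71.6% of spanning TPM in replicate 1 and 71.8% in replicate 2, and in 71.5% ± 0.298 in the second table. Taken apart, the share was 46.1% ± 0.772 of alpha TPM and 99.5% ± 0.0271 of beta TPM (SD, n = 2). In the second table these shares were 53.7% ± 0.231 and 99.1% ± 0.133. The beta share rests on the only annotated coding beta form without the exon, Nrxn2-203, whose coding sequence of 1059 bases is shorter than the 1980 of Nrxn2-202. Nrxn2-203 also has another end, at position 6544169 against 6533217 for Nrxn2-202. No annotated coding beta form with the end of Nrxn2-202 lacks the exon. The beta share was thus largely set by the annotation and cannot be compared with the alpha share, and the pooled share carries this limit too.

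The splice site 4 exon of Nrxn3 was in 81.6% of spanning TPM in replicate 1 and 78.6% in replicate 2, and in 86.5% ± 2.05 in the second table. Of beta TPM, 23.95% ± 4.94 held it by the first table and 49.5% ± 6.75 by the second. These beta values cannot be compared with the alpha class of Nrxn3. No annotated alpha transcript of Nrxn3 that codes for protein lacks the exon, so the alpha share was fixed at 100% by the annotation. Alpha forms held 73.8% of coding Nrxn3 TPM by the first table and 73.3% by the second. The pooled Nrxn3 share could not fall below those values, and only its beta part was free to vary. The estimates are also bound to few models: the alpha form of Nrxn2 without the exon is Nrxn2-204 alone, and the beta form of Nrxn3 without it is Nrxn3-203 alone.

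Other short exons of Nrxn2 lie in the alpha part and were each held by some alpha transcripts and skipped by others. The 30-base exon (chr19:6448255-6448284) was in 85.2% ± 0.154 of spanning TPM, the 72-base exon (chr19:6450528-6450599) in 54.1% ± 0.741 and the 27-base exon (chr19:6488784-6488810) in 46.1% ± 0.772. In the second table they were in 83.1% ± 3.82, 61.5% ± 1.96 and 53.7% ± 0.231. Nrxn2-204 is the only coding transcript to skip the 72-base or the 27-base exon and the only alpha one to skip splice site 4, so those values are not separate measurements. The 30-base exon is skipped only by Nrxn2-209, an incomplete model of 648 bases.
The 27-base exon of Nrxn3 (chr12:89517906-89517932) was in 5.39% of spanning TPM in replicate 1 and 9.54% in replicate 2, and in 10.8% ± 4.08 in the second table. Only Nrxn3-205 skips it, and only Nrxn3-210 held it above 0 TPM in the first table. These models start at 88794504 and 89193106, so the share also reflects their different starts.

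In the neuroligins, the 60-base site A exon of Nlgn1 was in 53.9% of coding TPM in replicate 1 and 55.6% in replicate 2, and in 54.2% ± 3.73 in the second table. The 27-base site B extension has the same values because the same transcripts, Nlgn1-201 and Nlgn1-205, hold both, and no annotated transcript holds just one of them. The 51-base exon of Nlgn2 was in 93.6% ± 0.0339 of spanning TPM, and in 87.3% ± 0.962 in the second table. Its only form without the exon, Nlgn2-203, is an incomplete model of 784 bases. In Nlgn3 the downstream 60-base exon was in 56.5% ± 1.28 and the upstream one in 3.81% ± 0.439, and in the second table in 67.8% ± 0.909 and 8.04% ± 0.00336. The only Nlgn3 form without the downstream exon is the incomplete Nlgn3-203.

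**Figure D3:**
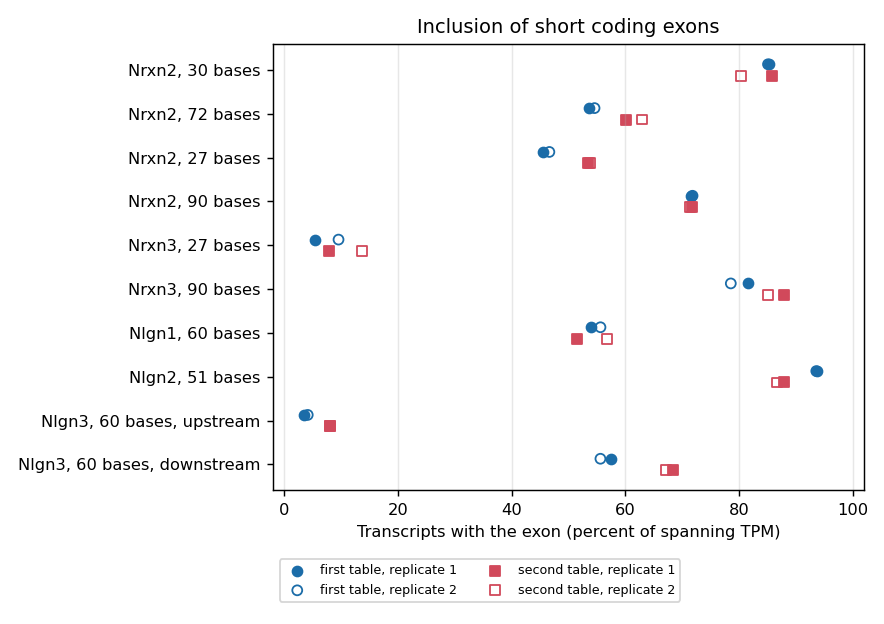
Percent of spanning TPM in coding transcripts that hold each short exon described here, for replicate 1 (filled) and replicate 2 (open) in the first table (circles) and the second table (squares). The 90-base splice site 4 exons lie at 71.7% for Nrxn2 and 80.1% for Nrxn3 as first-table means pooled over alpha and beta forms. The alpha part of Nrxn3 was fixed, and the beta part of Nrxn2 largely set, by the annotation. The 60-base exon of Nlgn1 lies near the middle at 54.8%.

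Not all RNA of these genes was in coding transcripts. Over 11875 genes with several transcripts, coding transcripts held a median of 85.7% of a gene's TPM (quartiles 67.5% and 96.5%). Nlgn2 and Nlgn3 each had 96.2% in coding transcripts and Lrrtm4 100%, since all of its 8 annotated transcripts are coding. Nrxn3 at 52.1% ± 4.79 and Lrrtm3 at 38.3% ± 6.14 were below the lower quartile of all genes in both libraries. Nrxn2 had 75.5% ± 1.89 in coding and 21.3% ± 1.20 in processed transcripts in the first table, but 59.7% ± 0.368 and 37.7% ± 0.122 in the second, where the lower quartile of coding shares over all genes was 63.7%.

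In Lrrtm3 the transcript with the highest share was Lrrtm3-204, annotated as retaining an intron, with 47.8% of the gene's TPM in replicate 1 and 42.0% in replicate 2. The coding transcript Lrrtm3-201 had 6.46 TPM in replicate 1 and 7.74 in replicate 2, so the coding level of Lrrtm3 was closer between libraries than its total. In the second table the leading transcript was instead the 545-base processed transcript Lrrtm3-202, with 38.2% ± 0.705, against 14.3% ± 6.75 in the first. In the first table Lrrtm3-202 drew 12.4 counts in replicate 1 and 35.8 in replicate 2, with posterior standard deviations of 7.92 and 10.7.

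In Nrxn3, retained-intron transcripts held 22.3% in replicate 1 and 25.3% in replicate 2, and transcripts annotated for nonsense-mediated decay, a pathway that degrades messages with early stops, 14.3% and 13.4%. In Nlgn1 the retained-intron transcript Nlgn1-204 held 14.1% in replicate 1 and 22.6% in replicate 2. Its span and that of the coding Nlgn1-205 both reach into the antisense gene A830092H15Rik. That gene shares 1229 exonic bases with Nlgn1 as a whole, not with Nlgn1-204 alone, and was at 5.12 ± 0.856 TPM. In Lrrtm1 the transcript annotated for nonsense-mediated decay, Lrrtm1-201, held 26.3% in replicate 1 and 14.3% in replicate 2.

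In coding share the tables differed most in Nlgn3. Its leading transcript in the first table was Nlgn3-201, with 50.7% ± 2.31 of the gene's TPM, ahead of the incomplete Nlgn3-203 with 41.8% ± 0.686. The 747-base processed transcript Nlgn3-205 held 1.54% ± 0.325 of Nlgn3 TPM in the first table, from 13.8 and 19.3 counts, and 33.5% ± 1.33 in the second. Coding transcripts of Nlgn3 held 96.2% ± 1.25 by the first table and 55.1% ± 0.701 by the second. In the other genes the leading transcript was the same in both tables, Lrrtm3 excepted, which makes 7 of 9. Among those, Nlgn2-202 held 74.2% ± 2.24, Lrrtm2-201 73.8% ± 1.04, Lrrtm1-202 60.97% ± 7.88, Nlgn1-203 35.8% ± 2.07 and Lrrtm4-208 34.6% ± 5.78 in the first table.

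Further transcripts reached 10% of their gene in at least one table. In Nrxn3 the retained-intron Nrxn3-204 held 20.2% ± 0.183, the decay-annotated Nrxn3-208 11.5% ± 1.20 and the processed Nrxn3-211 6.06% ± 3.21, the last with 13.4% ± 0.514 in the second table. The coding Nlgn2-201 held 15.9% ± 1.10 by the first table and 27.6% ± 1.02 by the second, and the processed Nlgn3-204 2.23% ± 0.926 and 11.4% ± 0.633. Lrrtm1-203, a coding form, held 18.7% ± 0.573, the retained-intron Lrrtm2-202 16.3% ± 2.65 and the processed Lrrtm3-203 2.46% ± 3.48, the last with 12.4% ± 2.27 in the second table. Several coding forms of Lrrtm4 shared its TPM, with Lrrtm4-205 at 19.4% ± 0.328, Lrrtm4-206 at 17.3% ± 0.389, Lrrtm4-201 at 12.003% ± 3.60 and Lrrtm4-207 at 7.75% ± 2.33. Lrrtm4-202 was listed at 0 in both libraries of the first table and held 18.3% ± 4.90 in the second.

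**Figure D4:**
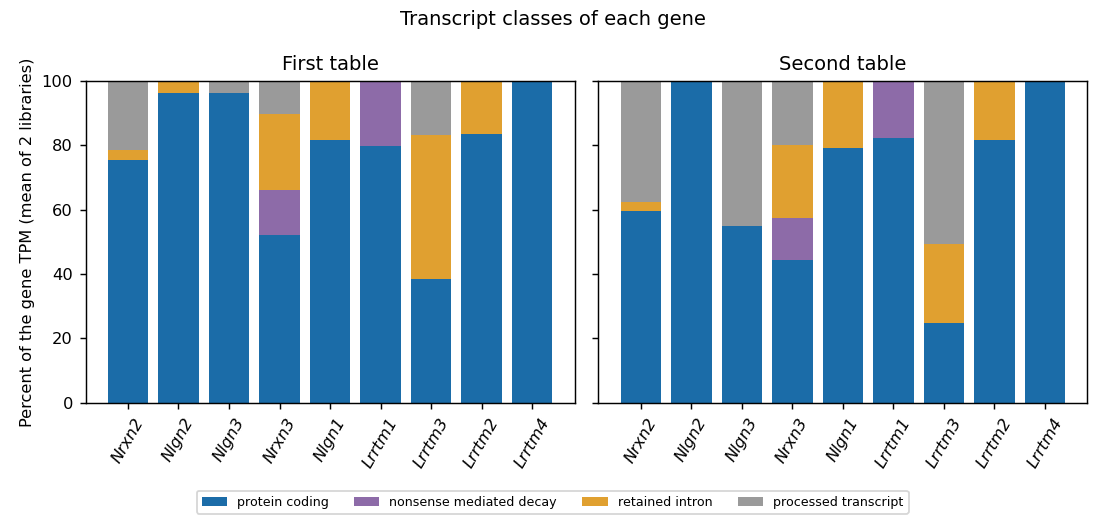
Mean percent of each gene's TPM in coding, nonsense-mediated decay, retained-intron and processed transcripts, in the first table (left) and the second (right). Lrrtm3 and Nrxn3 have the lowest coding shares in the first table, 38.3% and 52.1%, and the Nlgn3 coding share is 55.1% in the second.

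The libraries were compared gene by gene on counts scaled by the trimmed mean of M-values, with an exact two-sided conditional binomial test and Benjamini-Hochberg adjustment over all genes tested. The test covers counting error between these 2 libraries, not a condition. Of 18492 genes 25.1% were called at an adjusted p under 0.05, and 4 of the 9 members were called. The members' median absolute log2 ratio was 0.08, against 0.12 over 15122 detected genes.

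Nrxn2 had 24985 counts in replicate 1 and 23712 in replicate 2, a scaled ratio of 1.07 (95% interval 1.05 to 1.09) and an exact binomial adjusted p of 5.84e-12. Nlgn2 had 11798 and 11426 counts, a ratio of 1.05 (1.02 to 1.08) and an exact binomial adjusted p of 0.00252. Nrxn3 had 6091 and 6738 counts, a ratio of 0.918 (0.886 to 0.9502) and an exact binomial adjusted p of 1.81e-05. Lrrtm3 had 816 and 999 counts, a ratio of 0.829 (0.755 to 0.910) and an exact binomial adjusted p of 0.000681. So in scaled counts Nrxn2 and Nlgn2 were higher in replicate 1, and Nrxn3 and Lrrtm3 lower. The direction of Nrxn2 and Nlgn2 turned in TPM, in which all 9 genes were lower in replicate 1. The median log2 ratio over detected genes was 0.02 in scaled counts and -0.07 in TPM. All 4 lay between the 5th and the 95th percentile of detected genes, which were -0.45 and 0.31 on the log2 scale. With scaling by total counts Nlgn2 was not called.

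The other 5 genes were not called. Their ratios were 1.05 (1.00 to 1.09) for Nlgn1, 1.02 (0.992 to 1.05) for Nlgn3, 1.06 (0.985 to 1.13) for Lrrtm1, 0.989 (0.924 to 1.06) for Lrrtm2 and 0.936 (0.854 to 1.03) for Lrrtm4. With the counts of the second table, in which 31% of 20324 genes were called, 7 of the 9 members were, Nlgn1, Nlgn3 and Lrrtm1 being added.

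**Figure D5:**
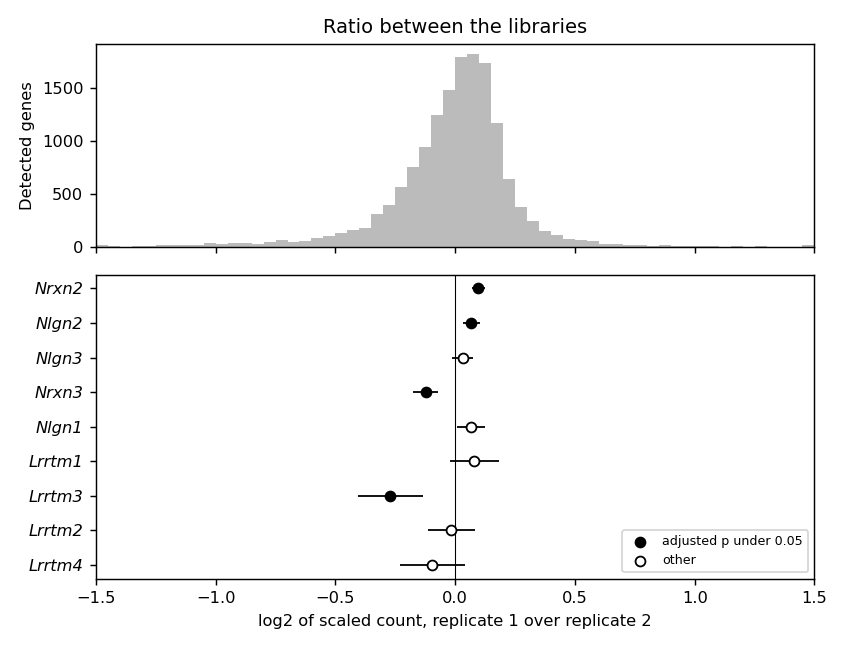
Top, number of detected genes by log2 ratio of scaled counts, replicate 1 over replicate 2, with values beyond 1.5 in the end bins. Bottom, the 9 genes with 95% intervals that cover counting error only, filled where the adjusted p was under 0.05. All 9 points lie between -0.27 for Lrrtm3 and 0.10 for Nrxn2.

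The long introns of Nrxn3, Lrrtm4 and Nlgn1 hold 11 separate loci annotated as sense intronic or with the provisional class TEC, on the same strand and with no shared exon, a set chosen after its values were seen. All 11 had a lower TPM in replicate 1 than in replicate 2. Their counts summed to 124 and 231 inside Nrxn3, to 253 and 443 inside Lrrtm4, and to 33 and 56 inside Nlgn1. By the exact binomial test 5 of the 11 were called. Of the 1548 loci of these types in the whole annotation that were tested, 37.7% were called and lower in replicate 1, and 0.129% were called and higher. Their part in the totals of the genes around them was not tested.

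Genes of other proteins that meet these adhesion molecules were taken from lists made by known function. Their calls between the libraries are by scaled counts, in which 13.3% of all genes tested were called higher and 11.9% lower in replicate 1, and the lists were not tested as sets. The presynaptic receptor phosphatases, which bind a parallel set of postsynaptic ligands, were all detected in both libraries, with Ptprs at 408 ± 35.4 TPM, Ptprd at 179 ± 17.5 and Ptprf at 112 ± 2.67. Between the libraries 1 of the 3, Ptprd, was called and was lower in replicate 1. Of the 15 ligands of those phosphatases, 14 were detected, from Lrrc4b at 192 ± 5.04 TPM and Lrfn5 at 73.5 ± 0.552 to Il1rap at 6.42 ± 0.601, while Slitrk6 at 0.605 ± 0.120 was under the detection level. Of these 15, 4 were called higher and 4 lower in replicate 1, and 3 of the higher ones were also higher in TPM.

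Of 19 secreted and surface neurexin ligands, 18 were detected, and the median over all 19 was 22.3 TPM. Calsyntenin Clstn1 at 253 ± 2.16 TPM and the latrophilin Adgrl1 at 203 ± 6.26 were the highest, and the neurexophilin Nxph2 at 3.84 ± 0.120 and the undetected C1ql2 at 0.710 ± 0.113 the lowest. Between the libraries 7 were called, all higher in replicate 1 by scaled counts but only 4 of them by TPM. The neuroligin blockers Mdga1 and Mdga2 were at 46.2 ± 0.148 and 30.01 ± 3.63 TPM, and the proteases Adam10 and Mmp9, which cut neuroligins from the surface, at 45.1 ± 2.59 and 1.62 ± 0.651, with none of the 4 called. All 9 heparan sulphate proteoglycan genes were detected, from Sdc3 at 249 ± 5.71 TPM and Gpc1 at 88.9 ± 6.27 to Gpc4 at 8.97 ± 0.417 and Sdc4 at 6.67 ± 0.608. Of these 9, 3 were called higher, 2 of them also in TPM, and 1 lower in replicate 1.

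The scaffold proteins that hold these receptors in place were detected throughout. The 8 genes of the presynaptic list, which also holds Syt1, a calcium sensor and not a scaffold, had a median of 94.4 TPM. They ranged from Syt1 at 214 ± 3.77 and Lin7c at 116 ± 0.163 to Lin7b at 33.4 ± 0.742 and Lin7a at 8.92 ± 0.707. Of these 8, 4 were called higher, 1 of them also in TPM, and 1 lower in replicate 1. The 13 postsynaptic ones had a median of 46.0 TPM, from Dlg4, which encodes the neuroligin-binding scaffold PSD-95, at 247 ± 1.44 and Shank1 at 159 ± 10.9 to Dlgap2 at 23.2 ± 3.42 and Dlg1 at 22.4 ± 4.24. Of these 13, 1 was called higher and 7 lower in replicate 1, all in the same direction in TPM.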

How the data were processed

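Total RNA-seq libraries were prepared from 300 ng of RNA with ERCC spike-ins, per the labels. Reads were assigned to mm10 and GENCODE M21, per the deposited file descriptions. No aligner or quantifier version is given in the sources used here. The first table, as deposited by the authors, has RSEM column names and gives an expected count and TPM per gene and transcript, with spike-ins included, and shared reads split between transcripts. The posterior standard deviation of a count is a score deposited by the authors, and the TPM interval bounds they deposited were read as a signal and not used. Transcript percent values deposited by the authors are shares of the gene's TPM. The second table, made directly from reads per the deposited descriptions, has kallisto column names and gives estimated counts and TPM. The tables do not tell the parental alleles apart, and sequences shown are those of the reference strain. Some exon sequences are not reported here.

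Means and SDs are over 2 libraries, with a detection level of 1 TPM in each and log2 values with a pseudocount of 1. Expected counts were rounded, genes with a summed count under 20 were left out, and library sizes were scaled with edgeR 4.0.16 (TMM). The p-values came from an exact conditional binomial test (scipy 1.17.1). It was checked on counts simulated with counting error alone, which cannot show how it handles other variation between libraries. Intervals cover counting error only. Genes, transcripts and exons came from the GENCODE M21 annotation, with exon sequences from its transcripts and promoters from RefSeq (GRCm38.p6). Alpha and beta forms were divided at the widest gap between starts of complete coding transcripts. Short exons are coding exons of at most 100 bases, in whole codons, that another coding transcript skips. Named were all members, their transcripts with at least 10% of the gene's TPM in either table, the catenin hosts and, of each partner list, the 2 highest and 2 lowest genes. Members and lists were chosen with earlier results of these data known. Alternatives were the other table, pseudocount, scaling, filter and rule for the classes, and leaving out each library.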

Additional observations from a re-analysis of the deposited data

How the results depend on the processing

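With 2 libraries, SDs are themselves imprecise, and leaving out a library leaves 1 value with no error. Left out in turn, the libraries gave -0.15 to 0.21 for the log2 difference of Lrrtm3 minus Lrrtm4, -0.22 to 0.24 for Lrrtm3 minus Lrrtm2 and -0.0270 to 0.0722 for Lrrtm2 minus Lrrtm4, so these change sign with 1 library. With the second table the log2 differences were -0.0505 for Nlgn3 minus Nlgn2, -1.27 for Nlgn1 minus Nlgn3, -0.93 for Lrrtm2 minus Lrrtm1, 0.74 for Lrrtm3 minus Lrrtm4, -0.0257 for Lrrtm2 minus Lrrtm4, -1.41 for Lrrtm1 minus Ctnna2, -0.58 for Lrrtm2 minus Ctnna1 and 4.76 for Lrrtm3 minus Ctnna3. A pseudocount of 0.1 gave -1.34 for Nlgn1 minus Nlgn2, -1.41 for Lrrtm1 minus Ctnna2 and 5.36 for Lrrtm3 minus Ctnna3. The members' median was 72.9 TPM in the second table, 47.7 with the posterior mean, 97.4 after rescaling to nuclear protein-coding genes, 36.6 with coding transcripts alone and 89.5 in the rescaled second table, an alternative chosen after seeing the data, as were the separate alpha and beta shares and the Nlgn1 extension. The beta share of Nrxn2 was 35.02% in the second table, 48.0% with classes from coding length and 42.9% with all placed transcripts, and that of Nrxn3 was 13.6% with all placed transcripts. The pooled Nrxn3 splice site 4 share, with its alpha part fixed by the annotation, was 86.5% in the second table. Between the libraries 7 members were called with the second table, where the Lrrtm2 log2 ratio turned to 0.0410, and 3 with scaling by total counts, where that of Nlgn3 turned to -0.0138. Median-of-ratios scaling and no filter on counts each called 4 members. The cause of these shifts was not tested. No paired analysis was possible because there is 1 group.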

Other observations

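RNA-binding proteins known to set neurexin and neuroligin exon use were all detected, 11 of 11, with a median of 80.9 TPM. Rbfox2 at 201 ± 9.28 TPM and Khdrbs3, which encodes the STAR protein SLM2 that promotes skipping of the splice site 4 exon, at 156 ± 9.51 were the highest (SD, n = 2). Nova1 at 18.7 ± 0.693 and Khdrbs2, which encodes the related SLM1, at 12.8 ± 2.48 were the lowest. Between the libraries 4 of the 11 were called by the exact binomial test, 3 higher, 2 of them also in TPM, and 1 lower in replicate 1. Any relation of these levels to the exon shares cannot be tested with 2 libraries.

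Lrrtm4 shares 1543 exonic bases with the antisense gene Gm4409, which had 1 count in replicate 1 and 2 in replicate 2, while Lrrtm4 had 880 and 954. Nrxn2 shares 682 exonic bases with Slc22a12 on the opposite strand, which had 4 and 2 counts, and 207 with the antisense gene Gm14964, which had 29 in each library.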
